A study of Drosophila melanogaster with 4 samples.

Results

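The genes described here are the long non-coding RNAs and pseudogenes that were measured in wing imaginal discs of Paip1 mutant and y w control Drosophila melanogaster larvae. They are the rows of the deposited expression table whose listed name is CR followed by digits or begins with lncRNA:, with a mean of at least 2 TPM over the 4 libraries, and with the dosage compensation RNAs roX1 and roX2 left out. TPM gives the share of a library's transcripts after division by transcript length. The rule kept 211 of 2493 listed genes with such names, in a table of 17559 genes. Of the rest, 1239 were listed at 0 in all 4 libraries and 1043 lay above 0 but under 2 TPM. Just inside the limit were CR44987 with a mean of 2.005 TPM, CR43426 with 2.01 TPM and CR44599 with 2.08 TPM, and just outside it were CR43481 with 1.995 TPM, CR44169 with 1.96 TPM and CR44478 with 1.94 TPM. Members were thus chosen by their mean level over both groups, and a gene at 0 in one group entered only if it was high enough in the other.

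RNA was sequenced from discs of larvae at the third instar in 2 groups, Paip1 mutant and y w control, with 2 libraries each. The product of Paip1 is a partner of poly(A)-binding protein in translation, and y w is a laboratory strain carrying mutations in the pigment genes yellow and white. The sources used here do not give the Paip1 allele, its genetic background, the sex of the larvae or the number of discs per library. Nothing in the labels says that the libraries of a group came from separate collections, so a p-value reflects only how far these 4 libraries spread, and that spread may be technical.

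Long non-coding RNAs are transcripts with no long open reading frame, and the CR prefix is how FlyBase numbers genes that it does not annotate as coding. Some are antisense RNAs, read from the strand opposite to a coding gene, and some stand alone between genes. Others are hosts, whose transcripts contain a microRNA hairpin or a small nucleolar RNA that is cut out of them. Hairpin RNAs fold back on themselves and are cut by Dicer-2 into small interfering RNAs. Pseudogenes are copies of genes that have lost the open reading frame, and near-identical copies can share sequencing reads. In Drosophila, most annotated long non-coding RNAs have no known function, and many are expressed in a narrow set of tissues, the testis above all.

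The listed values summed to 91.9% and 93.6% of the nominal TPM total in the Paip1 mutant libraries, against 99.6% and 99.7% in the y w control libraries. Paip1 itself, listed as CG8963, had 2.37 and 2.22 TPM in Paip1 mutant discs, against 112 and 121 TPM in y w control discs (log2 change −5.16, adjusted p = 3.54e-05, limma). All 7 wing disc epithelium markers were detected in every library, and all 7 were lower in the mutant (summed level 412 and 505 TPM, against 918 and 886 TPM in the control). Of these 7 calls, 2 were left without y w control replicate 1, 2 without y w control replicate 2 and 6 without either mutant library. All 8 muscle markers were higher (228 and 165 TPM in the mutant, against 21.3 and 34.6 TPM in the control), as were 3 of 5 tested hemocyte markers (19.1 and 28.3 TPM, against 1.68 and 8.97 TPM). The 8 muscle calls held without any 1 library, while of the 3 hemocyte calls 0 were left without Paip1 mutant replicate 1 or 2 and 1 was left without either control library. Among fat body markers 1 of 5 was lower (236 and 21.4 TPM, against 1090 and 375 TPM), a call lost without either control library. Lower too were 3 of 4 adult muscle precursor markers, with 1 call left without either control library and 2 without Paip1 mutant replicate 1, and 2 of 3 tracheal markers, with 1 left without y w control replicate 1. Of 3 tested neuron and glia markers Cadps was higher and elav lower (summed level of the 6 listed, 17.0 and 15.9 TPM in the mutant, against 18.8 and 15.5 TPM in the control), and the elav call was lost without Paip1 mutant replicate 1 or either control library. No marker of these 7 lists was at 0 in all libraries. Of 3 tested sex markers the Y-linked kl-3 was higher, at 27.2 and 30.2 TPM in the mutant against 0 and 0.62 TPM in the control, and kl-5 was at 0 throughout. The other tested sex markers, Sxl and msl-2, were not called. The dosage compensation RNA roX2 was lower, at 8.55 and 8.66 TPM in the mutant against 49.8 and 45.3 TPM in the control. So was roX1, at 43.5 and 50.7 TPM against 78.8 and 115 TPM, a call lost without either mutant library or y w control replicate 2. Of 2 tested male germ line markers Mst87F was higher, at 2.54 and 3.25 TPM in the mutant and 0 in both control libraries. The part of these differences in the results on the members was not tested, and in bulk libraries fewer cells of a type and less RNA per cell cannot be told apart.

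Nearly all members found a place in the current annotation, Ensembl release 115 on the dm6 assembly. By gene ID 204 matched, 2 more matched by their CR number and 5 did not match. Of those matched, 168 were annotated as non-coding RNA, 35 as pseudogenes and 3 now as coding genes. Among the non-coding RNAs 87 carried the prefix for long non-coding RNA, 78 the prefix for antisense RNA and 3 the prefix for hairpin RNA. Levels were low, with a median member mean of 5.88 TPM, against 25.8 TPM over all genes tested. The mean lay between 2 and 5 TPM for 96 members, between 5 and 10 TPM for 51, between 10 and 100 TPM for 55, and above that for 9.

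Together the members made up between 0.784% and 0.906% of the listed transcripts. Their sum was 8330 and 8232 TPM in Paip1 mutant discs, against 8299 and 7813 TPM in y w control discs. Between 47.3% and 53.2% of that sum came from only CR34335 and CR45530, so the sum says little about the other members. At 1 TPM or more were 199 and 193 members in the mutant libraries, against 179 and 182 in the control libraries. Over all genes these numbers were 8494 and 8476 in the mutant libraries, against 8187 and 8082 in the control libraries. Members listed at 0 numbered 7 and 8 in the mutant libraries and 15 and 15 in the control libraries. The rule took in 39 members by the mutant mean alone and 28 by the control mean alone, which bears on both counts.

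CR34335, a single-exon RNA in an intron of the cell adhesion gene DIP-alpha on X, had 2137 and 1832 TPM in Paip1 mutant discs, against 2453 and 2253 TPM in y w control discs. CR45530, a single-exon RNA that lies 33 bases from the polyubiquitin gene Ubi-p5E on X, had 1800.3 and 2545 TPM in the mutant, against 1638 and 1684 TPM in the control. The groups did not overlap in either RNA, but neither difference passed the test (log2 change −0.25 ± 0.12, SE, adjusted p = 0.146 for CR34335; 0.37 ± 0.18, adjusted p = 0.150 for CR45530, limma with Benjamini-Hochberg adjustment). The CR45530 difference passed without Paip1 mutant replicate 1 (0.62, adjusted p = 0.0426) and with median-ratio scaling (0.60, adjusted p = 0.0332); its adjusted p over the settings lay between 0.0332 and 0.358. The authors' deposited table gives CR45530 the opposite direction, with a log2 fold change of −0.25 and an adjusted p of 0.299. CR42862, a spliced RNA on 3L, came next in abundance with 662 and 512 TPM in the mutant, against 908 and 687 TPM in the control (−0.44 ± 0.19, adjusted p = 0.117). The hairpin RNA CR18854, whose exons lie opposite those of the inositol trisphosphate kinase gene IP3K1 on 2L, had 207 and 219 TPM in the mutant, against 234 and 222 TPM in the control (−0.10 ± 0.10, adjusted p = 0.469). None of these 4 abundant RNAs passed the test.

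CR42491 was the most abundant member that changed. It holds the small nucleolar RNA Psi18S-531, which guides modification of ribosomal RNA, and its exons overlap those of the ribosomal protein gene RpL22 on the same strand of X. Of its 747 exonic bases, 377 overlap exons of RpL22, so reads of CR42491 and RpL22 may not be told apart there. CR42491 had 225 and 212 TPM in Paip1 mutant discs, against 561 and 548 TPM in y w control discs, with no overlap (−1.34 ± 0.10, adjusted p = 9.61e-04). RpL22 was also lower, at 1933 and 1735 TPM in the mutant against 2648 and 2779 TPM in the control (−0.57 ± 0.11, adjusted p = 0.0126), a call that was lost without either control library (adjusted p = 0.0824 and 0.104). CR45184 holds several small nucleolar RNAs and lies inside the splicing factor gene Sf3b3 on 3L. Of its 2649 exonic bases, 2508 overlap exons of Sf3b3 on the same strand, so reads of the RNA and the gene may not be told apart there. CR45184 had 103 and 99.6 TPM in the mutant, against 121 and 138 TPM in the control. Its groups did not overlap, but its difference missed the threshold (−0.35 ± 0.12, adjusted p = 0.0595).

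**Figure D1:**
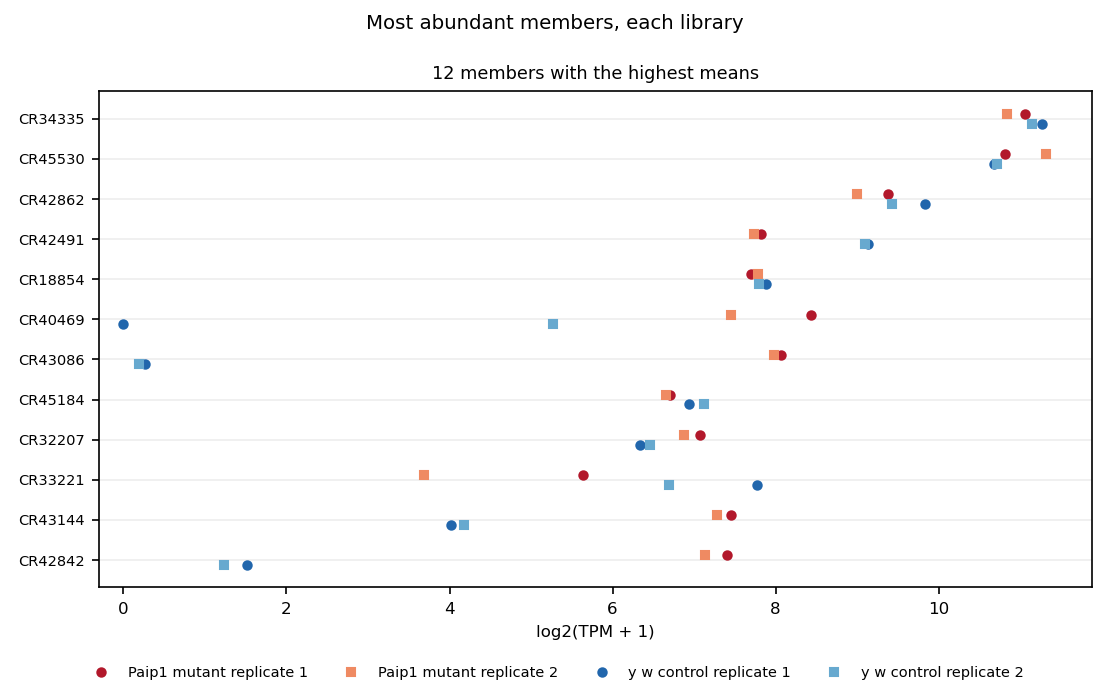
The 12 members with the highest means, 1 row each, with the level in each library as log2(TPM + 1) on the horizontal axis; the red shades are the Paip1 mutant libraries and the blue shades the y w control libraries. CR34335 and CR45530 have the highest level in every library, while CR43086 and CR42842 are high in the mutant libraries only.

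The mutant was set against the control gene by gene, with limma on log2(TPM + 1) over the 8605 genes that reached 1 TPM in at least 2 libraries and a Benjamini-Hochberg adjusted p under 0.05. The fit held 207 members; the other 4 were above 0 in 1 library only. Higher in the mutant were 46 members, 22.2% of those tested, against 15.6% of all genes tested. Lower were 49 members, 23.7%, against 29.1% of all genes tested, and 112 members did not pass. The median log2 change was −0.07 over the tested members and −0.22 over all tested genes. With a median-ratio scaling, which brings the median of all genes to −0.00, the split of the members was 51 higher and 35 lower. Without Paip1 mutant replicate 1 the count of lower members was 29, without y w control replicate 1 it was 23 and without y w control replicate 2 it was 26, and with no filter on low values it was 31. Shares over all genes under these settings are not given here. Lower calls over all genes also fell with median-ratio scaling and when 1 library was left out. These shifts can therefore not be read as particular to the members. No called member changed sign under any of the settings tried.

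Many changes of members were large, in both directions. At least 2-fold higher on the log2(TPM + 1) scale were 37 members (17.9% of those tested, against 9.73% of all genes tested), and at least 2-fold lower were 36 (17.4%, against 7.01%). Called changes reached from 0.57 to 7.79 among the higher members, with a median of 2.22, and from −0.54 to −6.67 among the lower members, with a median of −1.34, all in log2 units. Both mutant libraries lay above both control libraries for 68 members, 32.9% of those tested against 25.1% of all genes. Both lay below for 79 members, 38.2% against 52.8%.

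The rule itself bears on these counts. In 39 members only the mutant mean reached 2 TPM, and in 28 only the control mean did, so such members had to differ to be listed. In the 144 members where both group means reached 2 TPM, 15 were higher (10.4%) and 33 lower (22.9%). Of all 7336 tested genes with both group means that high, 11.7% were higher and 31.3% lower. Among these members the share that was higher was thus close to that of all such genes, unlike the share over all tested members. Calls that held when any 1 library was left out numbered 27 of the 46 higher and 17 of the 49 lower. The matching shares over all genes are not given here, so this difference between directions cannot be read as a trait of the members. By the adjusted p of the authors' deposited table, 43 of the tested members were higher (20.8%, against 19.9% of all genes tested) and 29 lower (14.0%, against 20.8%), at a threshold of 0.05. Of these, 35 higher and 29 lower members were called in both.

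**Figure D2:**
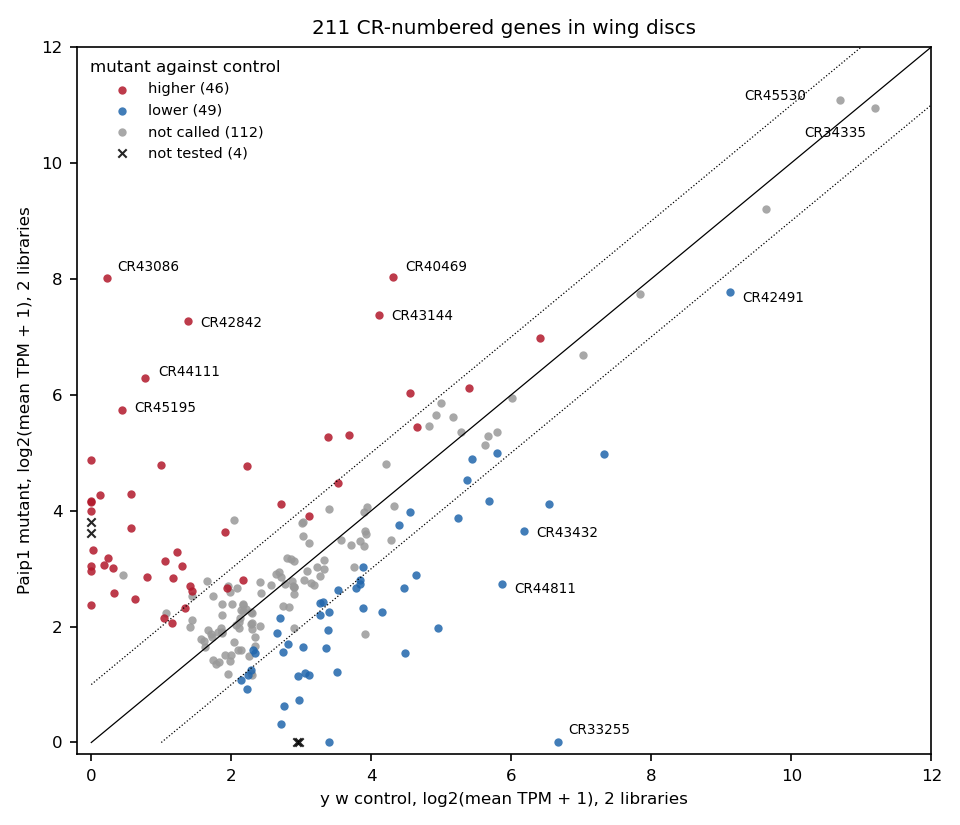
Each point is 1 of the 211 members, with its mean level in Paip1 mutant discs on the vertical axis and in y w control discs on the horizontal axis, both as log2(mean TPM + 1) over 2 libraries. The solid line marks equal levels and the dotted lines 1 log2 unit; 46 members were called higher (red), 49 lower (blue) and 112 neither (grey), and crosses are the 4 members above 0 in 1 library only.

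The largest increase belonged to CR43086, a pseudogene of 3 exons on 3L from 17868740 to 17870573. It had 267 and 250.4 TPM in Paip1 mutant discs, against 0.20 and 0.14 TPM in y w control discs (7.79 ± 0.12, adjusted p = 1.36e-05). Its nearest coding gene, CG34002, lies 8258 bases away and had 90.8 and 70.1 TPM in the mutant but was listed at 0 in both control libraries (adjusted p = 5.14e-05). A transcript near 0 in the control was thus among the most abundant members in the mutant.

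CR44111 lies on X from 8919640 to 8920467, in an intron of rdgA on the opposite strand; rdgA encodes a diacylglycerol kinase of photoreceptors. It had 84.0 and 70.8 TPM in Paip1 mutant discs, against 0.96 and 0.46 TPM in y w control discs (5.53 ± 0.19, adjusted p = 1.06e-04). The gene around it did not follow, with 5.74 and 5.26 TPM of rdgA in the mutant and 5.86 and 5.10 TPM in the control (0.01 ± 0.16, adjusted p = 0.977). The intronic RNA thus exceeded its host gene in the mutant and lay below it in the control.

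CR45195 is antisense to Sodh2, a sorbitol dehydrogenase gene, on 3R from 10876834 to 10877783, and overlaps its exons by 765 bases. It had 61.1 and 43.4 TPM in Paip1 mutant discs, against 0.61 and 0.09 TPM in y w control discs (5.31 ± 0.26, adjusted p = 3.03e-04). Sodh2 had 25.8 and 21.9 TPM in the mutant, against 1.19 and 0.79 TPM in the control (3.65 ± 0.18, adjusted p = 3.00e-04). CG14695, 421 bases from CR45195, had 97.9 and 96.5 TPM in the mutant, against 0.69 and 0.14 TPM in the control (6.15 ± 0.21, adjusted p = 1.06e-04). All 3 transcripts of this stretch were therefore near 1 TPM or below in the control and above 20 TPM in the mutant. Whether reads were assigned by strand is not stated in any source at hand, so reads of a gene and of its antisense partner cannot be told apart.

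Members listed at 0 in both control libraries numbered 9, and 4 of them were among the 12 largest increases. CR44117, which overlaps exons of Crg-1 on the opposite strand of X, had 29.2 and 27.3 TPM in Paip1 mutant discs and was listed at 0 in both y w control libraries (adjusted p = 8.25e-05). Crg-1 itself had 3.92 and 4.05 TPM in the mutant, against 0 and 0.04 TPM in the control. CR44383, a pseudogene 11 bases from sordd2 on X, had 17.1 and 16.7 TPM in the mutant and was listed at 0 in the control (adjusted p = 1.71e-04). The coding gene sordd2 behaved alike, with 18.6 and 13.3 TPM in the mutant, against 0 and 0.09 TPM in the control (adjusted p = 4.16e-04). CR45517 on X had 16.3 and 13.6 TPM in the mutant and was listed at 0 in the control (adjusted p = 2.83e-04), but its neighbour CG16756 at 266 bases was listed at 0 in 3 of 4 libraries. CR31054, a pseudogene on 3R, had 9.26 and 24.6 TPM in the mutant and was listed at 0 in the control (adjusted p = 0.00290).

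CR44495 stands alone on 2L, 19971 bases from the nearest coding gene, kek2. It had 18.4 and 18.2 TPM in Paip1 mutant discs, against 0.04 and 0.14 TPM in y w control discs (4.15 ± 0.17, adjusted p = 1.71e-04). CR43144, a spliced RNA 486 bases from Cul2 on 2L, had 175 and 154 TPM in the mutant, against 15.2 and 17.1 TPM in the control (3.27 ± 0.13, adjusted p = 1.44e-04). Cul2, which encodes a cullin scaffold of ubiquitin ligases, had 1637 and 1261 TPM in the mutant, against 65.9 and 58.5 TPM in the control (4.51 ± 0.16, adjusted p = 1.11e-04). The RNA and the cullin gene beside it were thus both an order of magnitude higher in the mutant.

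CR44135, 396 bases from CG18547 on 3R, had 36.7 and 16.6 TPM in Paip1 mutant discs, against 1.67 and 0.31 TPM in y w control discs (3.78 ± 0.48, adjusted p = 0.00461; 0.0518 without Paip1 mutant replicate 1). CG18547 had 318 and 247 TPM in the mutant, against 49.1 and 41.5 TPM in the control (2.61 ± 0.17, adjusted p = 6.36e-04). CR45140, whose exons lie opposite those of CG17574 on 2R, had 27.1 and 9.95 TPM in the mutant, against 0.64 and 0.32 TPM in the control (3.57 ± 0.46, adjusted p = 0.00459). CG17574 had 183 and 168 TPM in the mutant, against 33.6 and 40.2 TPM in the control (2.22 ± 0.13, adjusted p = 5.09e-04). In both pairs the coding gene was already present in the control and the RNA was near absent there.

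CR40469, also among the 12 largest increases, had values that lay far apart within each group. This single-exon RNA of 214 bases near the tip of X had 344 and 175 TPM in Paip1 mutant discs, against 0 and 37.5 TPM in y w control discs (5.31 ± 1.65, adjusted p = 0.0495). Its call was lost without Paip1 mutant replicate 1 (adjusted p = 0.266), without replicate 2 (0.184) and in 5 of the other settings.

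**Figure D3:**
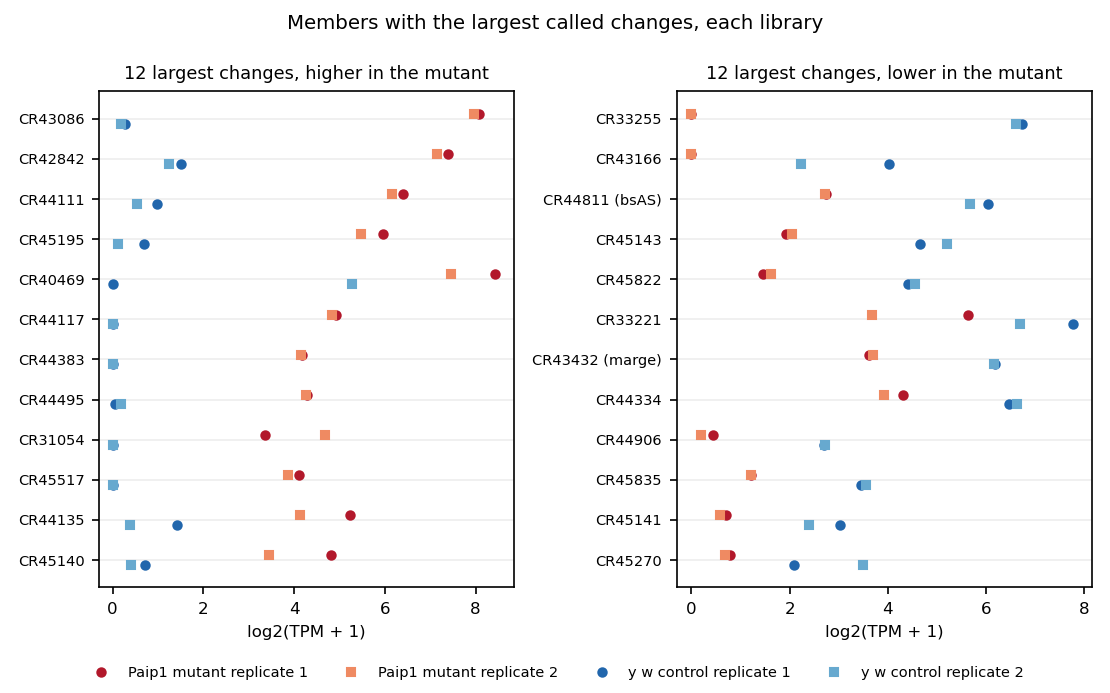
Levels in each library, as log2(TPM + 1), of the 12 members with the largest called increases (left) and the 12 with the largest called decreases (right); red shades are the Paip1 mutant libraries and blue shades the y w control libraries. Only members whose groups do not overlap were eligible, so the shades are apart in all 24 by that choice. The libraries of a group lie furthest apart for CR40469 among the increases and CR33221, CR43166 and CR45270 among the decreases.

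The 12 largest decreases were set beside the genes near them in the same way. CR44811, named bsAS, is an antisense RNA of blistered (bs), which encodes the serum response factor that sets intervein fate; in the fly wing bsAS is known to affect which bs isoform is made. It runs on 2R from 24351477 to 24369689 within bs and shares no exon bases with it. CR44811 had 5.67 and 5.60 TPM in Paip1 mutant discs, against 64.6 and 49.9 TPM in y w control discs (−3.12 ± 0.16, adjusted p = 3.08e-04). Its host bs had 12.1 and 15.4 TPM in the mutant, against 42.5 and 42.6 TPM in the control (−1.57 ± 0.14, adjusted p = 0.00176). Both were lower in the mutant, and bsAS was above bs in the control and below it in the mutant.

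CR44334 lies 2709 bases from rotund (rn), a zinc finger gene of the distal wing and hinge on 3R. It had 18.7 and 14.1 TPM in Paip1 mutant discs, against 86.9 and 97.4 TPM in y w control discs (−2.43 ± 0.16, adjusted p = 7.34e-04). The fitted change of rn was smaller, though the difference between the changes of an RNA and a gene was not tested here or in the pairs below, with 44.8 and 50.4 TPM in the mutant, against 81.5 and 78.8 TPM in the control (−0.74 ± 0.11, adjusted p = 0.00765; 0.0811 and 0.0730 without control replicates 1 and 2). CR45141 overlaps exons of the aspartyl-tRNA synthetase gene AspRS on the opposite strand of 2R and lies 948 bases from vestigial (vg), the wing selector gene. It had 0.62 and 0.49 TPM in the mutant, against 7.20 and 4.28 TPM in the control (−2.08 ± 0.27, adjusted p = 0.00503; 0.0507 without Paip1 mutant replicate 1). Its overlapping partner was not called, with 237 and 213 TPM of AspRS in the mutant and 189 and 177 TPM in the control (0.29 ± 0.11, adjusted p = 0.0831). Its neighbour vg was lower, with 35.8 and 38.8 TPM in the mutant, against 122 and 115 TPM in the control (−1.64 ± 0.11, adjusted p = 7.10e-04). These decreases moved with those of the 7 wing disc epithelium markers given above, of which vg and rn are members, and the part of that in them was not tested.

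CR45270 overlaps exons of grainy head (grh), a transcription factor gene of epithelia on 2R, by 520 bases on the opposite strand. Its overlap with exons of Dhit, also on the opposite strand and with levels not given here, was larger, at 2771 bases. CR45270 had 0.72 and 0.60 TPM in Paip1 mutant discs, against 3.28 and 10.3 TPM in y w control discs (−2.07 ± 0.47, adjusted p = 0.0213). The control libraries lay far apart in this RNA, and the call was lost without Paip1 mutant replicate 1 (adjusted p = 0.134), without replicate 2 (0.123) or without control replicate 2 (0.0551). The levels of grh were 36.3 and 54.9 TPM in the mutant, against 124 and 116 TPM in the control (−1.40 ± 0.21, adjusted p = 0.00698; 0.0593 and 0.0514 without control replicates 1 and 2). CR32111, a member singled out after its values were seen, lies 6136 bases from the Iroquois homeobox gene caup on 3L, and had 3.84 and 6.87 TPM in the mutant, against 19.5 and 22.8 TPM in the control (−1.84 ± 0.26, adjusted p = 0.00581). The gene caup had 11.0 and 18.3 TPM in the mutant, against 73.5 and 68.8 TPM in the control (−2.25 ± 0.24, adjusted p = 0.00261).

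Other antisense RNAs fell with the coding genes they overlap. CR45822, opposite exons of the insulator protein gene CTCF on 3L, had 1.76 and 2.06 TPM in Paip1 mutant discs, against 20.4 and 22.4 TPM in y w control discs (−2.95 ± 0.15, adjusted p = 3.00e-04). CTCF had 19.1 and 21.1 TPM in the mutant, against 38.2 and 36.3 TPM in the control (−0.86 ± 0.12, adjusted p = 0.00523; 0.0646 and 0.0547 without control replicates 1 and 2). CR45143, opposite exons of the splicing regulator gene fusilli (fus) on 2R, had 2.78 and 3.13 TPM in the mutant, against 24.1 and 35.9 TPM in the control (−2.95 ± 0.21, adjusted p = 8.89e-04). Both antisense RNAs were picked from the changes whose groups do not overlap. The gene opposite CR45143 was lower as well, with fus at 30.7 and 36.8 TPM in the mutant, against 56.1 and 49.6 TPM in the control (−0.63 ± 0.14, adjusted p = 0.0195; 0.0790, 0.143 and 0.0936 without Paip1 mutant replicate 1 and without control replicates 1 and 2). CR45835 lies within Sec63, a gene of protein import into the endoplasmic reticulum, and had 1.32 and 1.31 TPM in the mutant, against 9.97 and 10.8 TPM in the control (−2.30 ± 0.16, adjusted p = 7.64e-04). Sec63 had 70.8 and 72.5 TPM in the mutant, against 94.9 and 89.1 TPM in the control (−0.36 ± 0.10, adjusted p = 0.0427; between 0.0628 and 0.265 without any 1 library).

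CR43432, known as marge, lies alone on 3L 586 bases from the Bearded family gene Ocho. It had 11.2 and 11.9 TPM in Paip1 mutant discs, against 72.1 and 70.9 TPM in y w control discs (−2.53 ± 0.11, adjusted p = 2.02e-04), while Ocho had 16.4 and 19.8 TPM in the mutant and 18.9 and 20.1 TPM in the control (−0.11 ± 0.14, adjusted p = 0.542). The RNA thus moved beside a coding gene whose groups overlapped. CR44906, a single-exon pseudogene on 2L, had 0.35 and 0.15 TPM in the mutant, against 5.51 and 5.55 TPM in the control (−2.39 ± 0.21, adjusted p = 0.00159). CR33221, a pseudogene of 1 exon on X, had 48.8 and 11.9 TPM in the mutant, against 217 and 102 TPM in the control (−2.57 ± 0.70, adjusted p = 0.0343). Its call was lost without Paip1 mutant replicate 2 (adjusted p = 0.117), without control replicate 1 (0.158) or 2 (0.0805), and with median-ratio scaling (0.0623). CR43166, an RNA of 245 exonic bases on 3R, was listed at 0 in both mutant libraries and had 15.3 and 3.73 TPM in the control (adjusted p = 0.0125; 0.106 and 0.0882 without Paip1 mutant replicates 1 and 2).

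Members with exons opposite those of a coding gene were next set beside that gene, whatever their annotated type. Exons of 88 members overlapped exons of a tested coding gene on the opposite strand, in 102 pairs. These include pseudogenes, such as CR18275, and short overlaps, such as the 10 bases shared by CR31514 and RpS29. Over these pairs the log2 changes of RNA and gene had a Pearson coefficient of 0.59 and a Spearman coefficient of 0.55, given as a description, since the pairs share the 4 libraries and may share reads. Both partners were called in 23 pairs. They moved in the same direction in 21 of these, with both higher in 11 and both lower in 10. Of the 13 pairs in which the RNA was higher, the gene was higher in 11, with a median of 1.51 for the genes. Of the 20 pairs in which the RNA was lower, the gene was lower in 10, higher in 1 and not called in 9, with a median of −0.41. Over all genes tested 15.6% were higher and 29.1% lower.

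The pairs that follow were chosen after their values were seen. CR46089 on 3R overlaps exons of the stress regulator gene p53 by 812 bases and exons of Ctns by 1495 bases, both on the opposite strand. CR46089 had 6.49 and 7.55 TPM in Paip1 mutant discs, against 0.30 and 0.17 TPM in y w control discs (2.70 ± 0.21, adjusted p = 0.00102). The levels of p53 were 68.3 and 51.8 TPM in the mutant, against 18.0 and 16.6 TPM in the control (1.72 ± 0.16, adjusted p = 0.00191). CR44029 lies opposite exons of unc-13, a gene of synaptic vesicle priming on chromosome 4, and had 49.4 and 27.3 TPM in the mutant, against 13.1 and 10.6 TPM in the control (1.56 ± 0.29, adjusted p = 0.0126; 0.0624 and 0.0854 without control replicates 1 and 2). In both pairs the gene moved with the RNA, with unc-13 at 465 and 412 TPM in the mutant, against 45.5 and 30.2 TPM in the control (3.53 ± 0.21, adjusted p = 5.09e-04).

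CR42860 lies opposite exons of sallimus (sls), the titin-like gene of the sarcomere on 3L. It had 25.2 and 17.6 TPM in Paip1 mutant discs, against 7.66 and 13.2 TPM in y w control discs (0.99 ± 0.29, adjusted p = 0.0426), a call lost without any 1 library (adjusted p between 0.0503 and 0.241). The levels of sls were 15295 and 15303 TPM in the mutant, against 158 and 160.1 TPM in the control (6.58 ± 0.09, adjusted p = 1.36e-05). Gene and RNA were thus both higher, while the 8 muscle markers, all higher, summed to 165 to 228 TPM in the mutant and 21.3 to 34.6 TPM in the control; the part of either in the value of CR42860 was not tested.

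Pairs that moved apart were 2 of the 23. CR43906 on X had 2.91 and 3.39 TPM in Paip1 mutant discs, against 0.97 and 1.49 TPM in y w control discs (0.90 ± 0.23, adjusted p = 0.0275; between 0.0739 and 0.130 without any 1 library). Opposite it, CG13377 had 17.3 and 21.3 TPM in the mutant, against 51.9 and 51.5 TPM in the control (−1.38 ± 0.14, adjusted p = 0.00217). CR44381 on X had 6.23 and 8.08 TPM in the mutant, against 14.7 and 12.7 TPM in the control (−0.86 ± 0.17, adjusted p = 0.0144), and CG14054 opposite it had 4.20 and 3.53 TPM in the mutant, against 1.40 and 1.40 TPM in the control (1.02 ± 0.19, adjusted p = 0.0131). Those calls of CR44381 and CG14054 were lost without either control library (adjusted p between 0.0739 and 0.106), and that of CR44381 also without Paip1 mutant replicate 1 (0.0696).

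Coding genes that lie beside a member within 20 kb without overlapping it gave 147 tested pairs, with a Pearson coefficient of 0.52 and a Spearman coefficient of 0.27 over the log2 changes. In 34 pairs both were called, 24 of them in the same direction, with both higher in 11 and both lower in 13. The direction was opposite in the other 10, the RNA being higher and the gene lower in 6. Of the 29 pairs with a higher RNA, the nearest gene was higher in 11, lower in 6 and not called in 12. Of the 33 pairs with a lower RNA, the nearest gene was lower in 13, higher in 4 and not called in 16. Over all genes tested, 15.6% were higher and 29.1% lower. A large increase of an RNA therefore came with an increase of the nearest gene in some cases, such as CR43086 and CG34002, and not in others, such as CR44117 and its non-overlapping neighbour HIP-R, which was not called (−0.15 ± 0.12, adjusted p = 0.350).

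**Figure D4:**
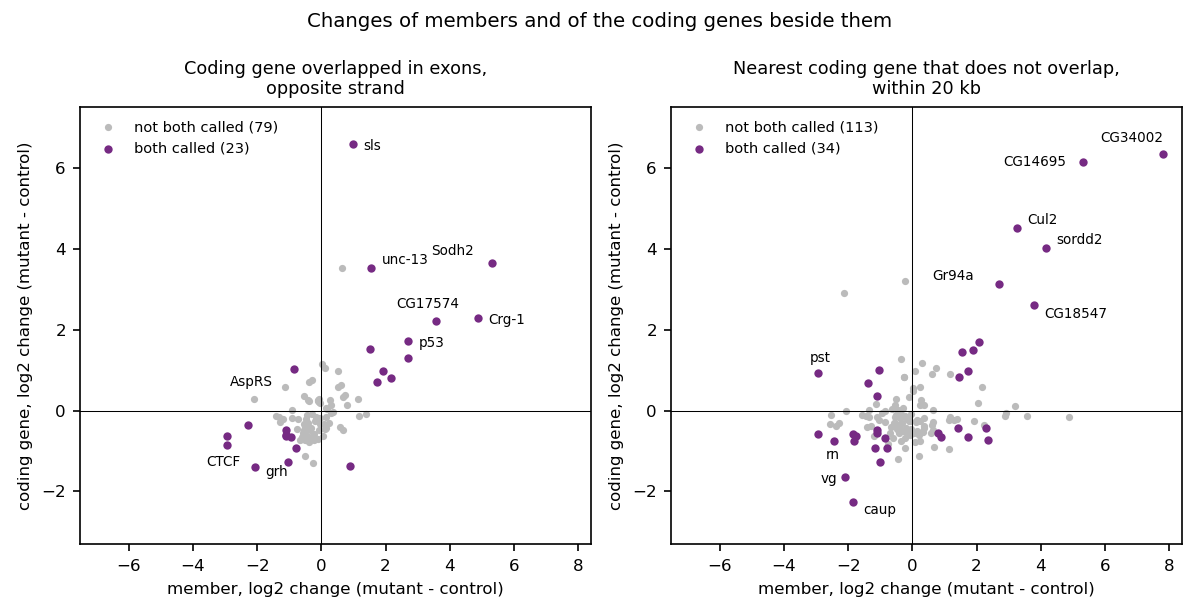
Fitted log2 change, on the log2(TPM + 1) scale, of each member (horizontal axis) and of a coding gene beside it (vertical axis), for the coding gene overlapped in exons on the opposite strand (left, 102 pairs) and for the nearest coding gene without overlap within 20 kb (right, 147 pairs). Purple points are pairs in which both were called, 23 on the left and 34 on the right; 21 of the 23 and 24 of the 34 lie in the lower left or the upper right quadrant.

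Members were also counted by their position beside other genes, in classes that share no members. Pseudogenes formed a class of their own, and exon overlap on the opposite strand was counted before exon overlap on the same strand. Members whose exons overlap a coding gene on the opposite strand were 14 higher (15.1%) and 17 lower (18.3%) of 93, beside 15.6% higher and 29.1% lower over all genes tested. Members that overlap no gene were 13 higher (35.1%) and 11 lower (29.7%) of 37 tested. Of 13 members that share exon bases with a coding gene on the same strand and with none on the opposite strand, 1 was higher (7.69%) and 6 were lower (46.2%). Of 13 that lie opposite a gene without exon overlap, 2 were higher (15.4%) and 6 lower (46.2%). Pseudogenes were 10 higher (28.6%) and 7 lower (20.0%) of 35. Members of any class that share no annotated exon bases with another gene were 22 higher and 22 lower of 77 tested (28.6% each), with a median log2 change of 0.14. These shares were tested neither against each other nor against all genes.

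Short members were measured less steadily. Of the 12 members with under 300 exonic bases, 8 were tested. In these 8 the median absolute log2 difference between libraries of a group was 1.22 in the Paip1 mutant and 1.68 in the y w control. In the longer members it lay between 0.21 and 0.37. The 4 members seen in 1 library only were all short. CR44404, now annotated as the infection-induced gene IBIN, had 25.8 TPM in Paip1 mutant replicate 1 and 0 elsewhere, and CR45045 had 22.5 TPM in that same library and 0 elsewhere. CR44499 had 13.3 TPM and CR44589 had 13.7 TPM in control replicate 1 and 0 elsewhere. None of these 4 could be compared between groups.

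By chromosome, 10 members were higher and 6 lower of 45 tested on X. On 2R 10 were higher and 9 lower of 34, and on 3L 11 were higher and 15 lower of 55. On 2L 6 were higher and 6 lower of 29, on 3R 6 were higher and 10 lower of 32, and on chromosome 4 a single member was higher and 2 were lower of 7. Among all tested genes the share that was higher lay between 14.7% and 16.8% over these chromosomes. Lower were 13.3% of tested members on X, 26.5% on 2R, 27.3% on 3L, 20.7% on 2L, 31.2% on 3R and 28.6% on 4. Of all tested genes 31.6%, 27.7%, 29.5%, 29.2%, 28.1% and 45.1% were lower in that order, the last over only 71 genes. These differences were not tested. Transposon sequence was annotated within the exons of 9 members, of which 4 were higher (44.4%) and 2 lower (22.2%), beside 15.6% and 29.1% of all genes tested; this difference in shares was not tested.

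A pair of pseudogenes on 3L, each of 2 exons and 330 exonic bases and each opposite a hairpin RNA gene, differed in opposite directions. CR33255, from 19423758 to 19424146 inside the hairpin RNA gene CR32205, was listed at 0 in both Paip1 mutant libraries and had 105 and 96.4 TPM in the y w control libraries (adjusted p = 2.71e-05). CR42842, from 19478284 to 19478670 and overlapping the hairpin RNA gene CR32207, had 168 and 139.9 TPM in the mutant, against 1.86 and 1.35 TPM in the control (5.89 ± 0.16, adjusted p = 5.14e-05). The 2 pseudogenes were thus high in opposite groups. Added together they had 168 and 139.9 TPM in the mutant, against 107 and 97.7 TPM in the control.

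The hairpin RNAs opposite them had smaller fitted changes. CR32207 had 134 and 117 TPM in Paip1 mutant discs, against 80.1 and 87.2 TPM in y w control discs (0.57 ± 0.12, adjusted p = 0.0178; 0.0643, 0.140 and 0.102 without Paip1 mutant replicate 1 and without control replicates 1 and 2). CR32205 had 31.3 and 55.2 TPM in the mutant, against 33.2 and 21.5 TPM in the control, with overlapping groups (0.62 ± 0.33, adjusted p = 0.170). The sources used here do not say how reads were shared between similar genes, so the level of each is uncertain where they share sequence.

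A tandem array of pseudogenes on X, between nod and rho-4 and close to roX2, gave a second case. Its copies CR43211, CR43212, CR43213 and CR43216 are members and each span 1891 bases. The copies CR43214 and CR43215 have the same span but lay under the limit of 2 TPM. Each was listed at 0 in both mutant libraries and had 0.54 and 1.88 TPM in the control libraries. CR43211 and CR43213 had identical values in every library, 6.80 and 3.98 TPM in Paip1 mutant discs, against 7.20 and 5.65 TPM in y w control discs. CR43216 had 6.80 and 8.72 TPM in the mutant, against 7.20 and 5.65 TPM in the control, so it matched them in 3 of 4 libraries. Levels that repeat across copies cannot be read as separate measurements. Only CR43212 was called, with 72.0 and 56.1 TPM in the mutant, against 25.0 and 20.0 TPM in the control (1.47 ± 0.18, adjusted p = 0.00391). The 4 copies that are members together had 92.3 and 72.8 TPM in the mutant, against 46.6 and 37.0 TPM in the control. The coding gene rho-4 downstream of the array was also higher, at 114 and 116 TPM in the mutant against 65.1 and 62.2 TPM in the control, a call lost without control replicate 1 (adjusted p = 0.0518) or 2 (0.0579).

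**Figure D5:**
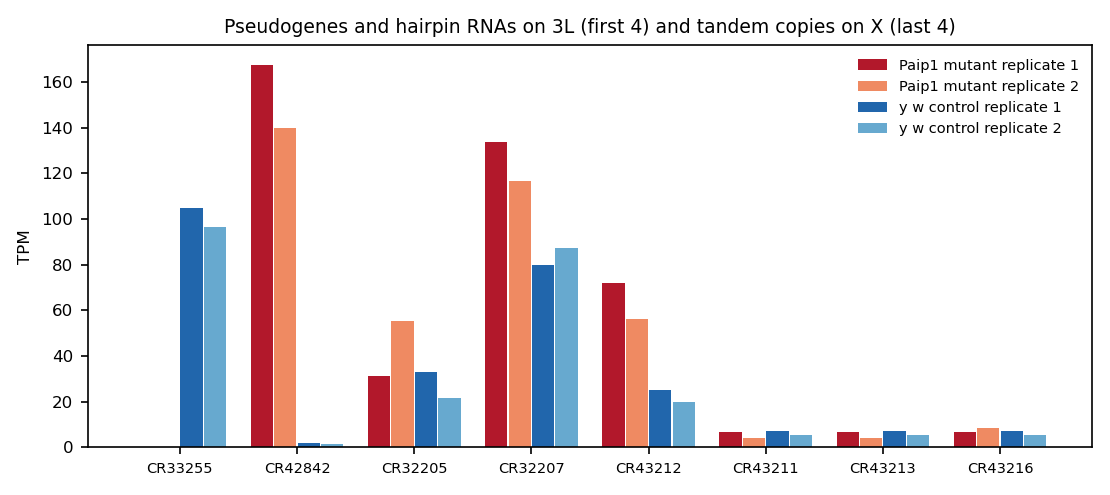
Level in TPM (linear axis from 0) of 2 pseudogenes and 2 hairpin RNAs on 3L (the first 4 groups of bars) and of 4 tandem pseudogene copies on X (the last 4), 1 bar per library, Paip1 mutant in red shades and y w control in blue shades. CR33255 has bars in the control libraries only, CR42842 almost only in the mutant libraries, and CR43211 and CR43213 have the same bars.

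Members with a name or a known small RNA were described one by one. CR45916 on 3L contains the hairpin of mir-9a, a microRNA that limits sensory organ precursors in the wing disc by repressing senseless. It had 1.31 and 1.46 TPM in Paip1 mutant discs, against 3.78 and 3.91 TPM in y w control discs (−1.02 ± 0.19, adjusted p = 0.0119; 0.0761 and 0.0833 without control replicates 1 and 2). The groups did not overlap, but the level was low, and the mature microRNA was not analysed here. CR45923, named dntRL, on 2R, had 6.99 and 5.41 TPM in the mutant, against 0.86 and 0.61 TPM in the control (2.05 ± 0.22, adjusted p = 0.00260). CR43628, the antisense RNA ASTR of Rga, a CCR4-NOT subunit gene on 3R, had 2.73 and 3.08 TPM in the mutant, against 3.73 and 4.12 TPM in the control (−0.34 ± 0.17, adjusted p = 0.166). Rga did not pass either, with 79.4 and 99.3 TPM in the mutant and 119 and 123 TPM in the control (−0.44 ± 0.14, adjusted p = 0.0540).

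CR44932, 125 bases from Antp, was the only member inside a Hox complex. It had 5.29 and 8.06 TPM in Paip1 mutant discs, against 5.06 and 5.74 TPM in y w control discs (0.24 ± 0.22, adjusted p = 0.401), and Antp had 31.6 and 37.6 TPM in the mutant, against 29.8 and 32.6 TPM in the control (0.14 ± 0.13, adjusted p = 0.428). For both the groups overlapped. CR43051, which the annotation now lists as the coding gene CG43051 within the TSC22 family gene bunched (bun) on 2L, holds a small nucleolar RNA. It had 18.3 and 15.8 TPM in the mutant, against 49.2 and 51.5 TPM in the control (−1.51 ± 0.12, adjusted p = 0.00125). Its host bun had 109.6 and 109.6 TPM in the mutant, against 176 and 175 TPM in the control (−0.68 ± 0.10, adjusted p = 0.00667; 0.0788 and 0.0766 without control replicates 1 and 2).

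Genes of proteins that process or degrade such RNAs were described from 4 lists. Of 13 exosome and nuclear decay genes, none was higher and 2 were lower, Rrp6 (18.9 ± 1.57 TPM in Paip1 mutant discs, against 30.5 ± 3.15 TPM in y w control discs, SD, n = 2 each; −0.66 ± 0.13, adjusted p = 0.0153) and Rrp45 (−0.41 ± 0.11, adjusted p = 0.0302). Of 6 genes of nonsense-mediated decay, the pathway that removes transcripts with early stop codons, Upf1 (−0.42 ± 0.11, adjusted p = 0.0348) and Smg1 (−0.54 ± 0.11, adjusted p = 0.0179) were lower. Of 6 microRNA processing genes, loqs (−0.65 ± 0.13, adjusted p = 0.0151) and AGO1 (−0.54 ± 0.14, adjusted p = 0.0317) were lower. Of 5 genes for hnRNPs, the nuclear proteins that coat new transcripts, Hrb87F, Hrb57A and glo were lower, by −0.67, −0.36 and −0.59. Over the 30 genes of these lists none rose and 9 fell (30.0%, beside 29.1% lower of all genes tested), with a median log2 change of −0.26, beside −0.22 for all genes tested. The share that was lower was thus near that of all genes. All 9 calls were lost without Paip1 mutant replicate 1 (adjusted p between 0.0518 and 0.0953), without y w control replicate 1 (between 0.0758 and 0.211) and without y w control replicate 2 (between 0.0903 and 0.225). With median-ratio scaling the calls of Rrp45, Upf1, Smg1, AGO1 and Hrb57A were also lost.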

How the data were processed

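RNA-seq of 4 wing disc libraries was used, 2 Paip1 mutant and 2 y w control. The authors deposited 1 value per gene and library, made from their reads by a pipeline whose listed tools, per the submitters' processing notes, are FastQC, TopHat, RSEM and DESeq on dm6. The deposited values carry no unit in the header and were taken as TPM, length-corrected shares of a library, since they have decimals and total 91.9% to 99.7% of the nominal TPM sum. Per the file headers, the authors' log2 fold change and adjusted p-value stand beside them. The sources used here give neither strand use nor depth nor how shared reads were split, so precision rests on 2 libraries per group.

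All 8605 genes with 1 TPM or more in at least 2 libraries were fitted on log2(TPM + 1) with limma 3.58.1 (R 4.3.3), with a variance prior following the mean (prior degrees of freedom 3.27, residual 2), two-sided, with Benjamini-Hochberg adjustment and a threshold of 0.05. The script was tested on simulated data. The pseudocount of 1 shrinks fold changes of low genes. Positions came from Ensembl 115; Python 3.11.15, pandas 2.3.3, numpy 2.4.6 and matplotlib 3.10.9 made the tables and plots. The members named are the 12 highest means, the 12 largest called changes per direction whose groups do not overlap, and those with a name, a microRNA hairpin or a place in a Hox complex, with the coding genes they overlap; nearest genes were added. The members and lists were chosen with earlier results of these data known. Alternatives were other scalings, pseudocounts and filters, a replicate block, no trend, and leaving out each library.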

Additional observations from a re-analysis of the deposited data

How the results depend on the processing

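Results rest on 2 libraries per group and on TPM, which keeps no depth, so low and short members are the least certain. The count of lower members moved most, though the count with no filter has none over all genes beside it. It was 31 with no filter on low values, and the counts were 26 higher and 30 lower with a gene mean of at least 5 TPM required before the fit (22.6% and 26.1%, beside 13.2% and 33.7% of all genes in that fit), 26 and 31 with a member mean of at least 5 TPM (23.0% and 27.4%, beside 12.9% and 32.4% of all genes with such a mean), and 22 and 22 among members free of exon overlap, where fewer members were tested. Leaving out 1 library gave 34 to 42 higher and 23 to 35 lower members, and 607 to 1089 higher and 406 to 2184 lower genes over all genes tested; lower members numbered 29 without Paip1 mutant replicate 1, 23 without y w control replicate 1 and 26 without y w control replicate 2, where fewer samples leave fewer degrees of freedom. Lower genes over all genes tested numbered 1469 with median-ratio scaling, which moved the median of all genes from −0.22 to −0.00. The summed level of the members averaged 8587 TPM in Paip1 mutant and 7780.0 TPM in y w control libraries when rescaled to a common sum, and 6296 TPM in mutant and 5703 TPM in control libraries without the member with the highest level in each.

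Of 37 named members compared over the settings, 409 values kept their direction and side of the threshold, 25 lost the call, 3 gained it and none reversed. Same-numbered libraries were barely alike (correlation of their deviations 0.0648), so the numbers were not taken as a pairing. With the replicate number as a block 51 members were higher and 53 lower, and 1403 and 2843 genes over all genes tested; with it CR42862 passed (−0.44, adjusted p = 0.0156).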
